A study of Mus musculus with 16 samples.

Results

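How far the effect of losing Irf8 depends on the stage of the progenitor was measured on 8 of the 16 single-colour mouse arrays of the series, chosen as all arrays of sorted progenitors. They form 4 groups of 2 arrays: common monocyte progenitors (cMoPs) of Irf8-deficient mice (Irf8KO), cMoPs of wild-type (WT) mice, monocyte-dendritic cell progenitors (MDPs) of Irf8KO mice, and MDPs of WT mice. All were sorted from bone marrow and hybridised without culture or transduction. The other 8 arrays hold 32Dcl.3 cells, a mouse myeloid progenitor line, collected 3 days after transduction with empty vectors, C/EBPalpha, IRF8 or both. The labels do not state the Irf8 allele, the strain, the age or sex of the mice, or how many mice were pooled. The 2 arrays of a group are from independent experiments, and nothing says that these used separate animals, so p-values measure only the spread between the arrays, which may be technical.

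The quantity described is the stage difference: the change in cMoPs (Irf8KO minus WT) minus the change in MDPs (Irf8KO minus WT). Each change compares arrays of 1 slide, since the cMoP arrays shared a slide and the MDP arrays shared another. Signals are log2 values relative to the 75th percentile of their array, so a value of 0 is the signal of that percentile. A positive stage difference means that loss of Irf8 left the signal relatively higher in cMoPs than in MDPs. In bulk RNA of this kind, fewer cells of a type and less RNA per cell cannot be told apart.

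IRF8 is a transcription factor of the interferon regulatory factor family that binds DNA mostly together with partners such as PU.1. It is required for normal monocyte and dendritic cell production, and mice without it accumulate neutrophils. MDPs can give rise to monocytes and dendritic cells. The cMoPs descend from them and are restricted to the monocyte lineage, so the 2 stages ask how the need for IRF8 shifts along 1 developmental step. C/EBPalpha is a transcription factor that drives granulocyte gene expression.

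Surface markers by which such progenitors are commonly identified (Kit, Csf1r, Flt3, Cx3cr1 and Ly6c1) were each well above background on all 8 arrays with at least 1 probe. Detection at both stages alone does not tell MDPs from cMoPs. The levels differed. The Flt3 probe detected on all 8 arrays had processed signals of 1816 to 1894 in Irf8KO MDPs and 1176 to 1269 in WT MDPs. It had 290 to 304 in Irf8KO cMoPs and 414 to 420 in WT cMoPs. Kit, Csf1r and Ly6c1 had higher processed signals on the cMoP arrays, and the order of Cx3cr1 depended on genotype. Whether these levels check the stage labels was not tested. The cMoP arrays were brighter, with a 75th percentile of 455.6 to 459.3 in Irf8KO cMoPs and 544.0 to 567.9 in WT cMoPs, against 67.8 to 69.9 in Irf8KO MDPs and 76.7 to 81.0 in WT MDPs. The share of probes detected well above background was 43.1 to 44.8% on cMoP arrays and 37.3 to 38.7% on MDP arrays. The difference between the 2 arrays of a group had an SD over genes of 0.203 in Irf8KO cMoPs, 0.220 in WT cMoPs, 0.301 in Irf8KO MDPs and 0.284 in WT MDPs. Xist, the noncoding RNA of the inactive X chromosome, was detected on the 4 MDP arrays and on no cMoP array, while the Y-linked Ddx3y and Eif2s3y were detected on the 4 cMoP arrays and on no MDP array. Stage therefore coincided with slide, with signal level and with the sex of the mice, and their parts in a stage difference cannot be told apart. No stage difference was called for these 3 transcripts.

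The targeted gene came first. The Irf8 signal was 5.83 and 5.87 in Irf8KO cMoPs, against 7.33 and 7.34 in WT cMoPs, and 7.44 and 7.43 in Irf8KO MDPs, against 8.02 and 7.96 in WT MDPs. It was lower in Irf8KO than in WT on every array of both stages and remained far above background, so this single probe, whose place relative to the deleted part is not known, does not check the labels. The reduction was 1.48 in cMoPs and 0.55 in MDPs, and the stage difference of -0.93 ± 0.052 (SE) had an adjusted p of 1.16e-06 by limma with Benjamini-Hochberg adjustment over 11963 genes. Cebpa, which encodes C/EBPalpha, had signals of 4.25 and 4.22 in Irf8KO cMoPs against 3.36 and 3.34 in WT cMoPs, and 4.07 and 4.16 in Irf8KO MDPs against 3.69 and 3.68 in WT MDPs. Its rise was larger in cMoPs (0.88) than in MDPs (0.43), by 0.45 ± 0.055 (SE, adjusted p = 0.000214), a call that was lost when arrays were scaled to their medians (0.23, adjusted p = 0.0945).

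Across the genome the change without Irf8 depended on stage for about as many genes in either direction. Of 11963 genes tested, 2980 (24.9%) had a stage difference past the limma threshold of an adjusted p under 0.05, 1390 of them positive (11.6%) and 1590 negative (13.3%). The share of positive calls was 46.6%, and it was 11.8% when arrays were scaled to their medians and 59.4% with another background correction, so the balance of directions depends on the scaling. Most differences were small: their median size was 0.18 over all genes and 0.42 over those called, against a median SE of 0.092, and 490 genes differed by at least 2-fold, 235 positive (1.96%) and 255 negative (2.13%). At an unadjusted p under 0.05 there were 4465 genes. Within cMoPs 2746 genes rose (23.0%) and 3726 fell (31.1%), and within MDPs 2733 rose (22.8%) and 3422 fell (28.6%).

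**Figure D1:**
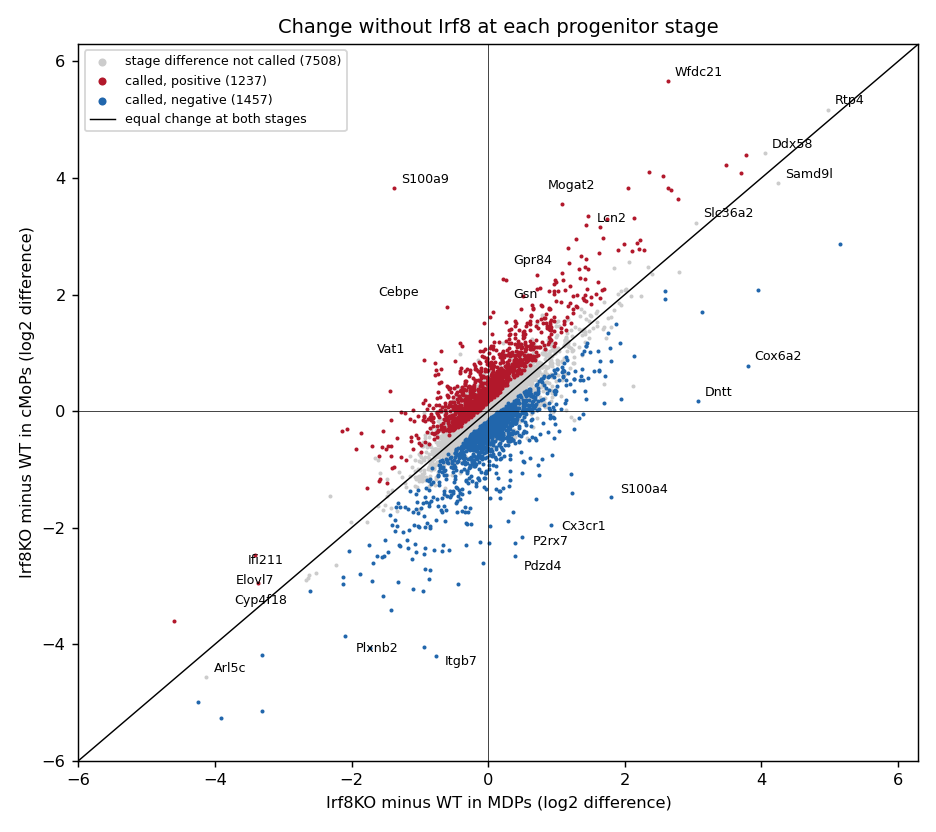
Change without Irf8 (Irf8KO minus WT, log2) in MDPs on the horizontal axis and in cMoPs on the vertical axis for the 10202 genes well above background on all 8 arrays, coloured by the call of the stage difference. Genes far from the diagonal changed unequally: S100a9 stands at -1.38 in MDPs and 3.82 in cMoPs, Itgb7 at -0.76 and -4.20, and Rtp4 lies on the diagonal near 5.

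To see what lies behind a stage difference, the 2694 called genes that were well above background on all 8 arrays were sorted by their change at each stage (26.4% of the 10202 genes of that kind, 12.1% positive and 14.3% negative). Of these 10202 genes 23.8% rose and 34.3% fell in cMoPs, and 24.0% rose and 30.8% fell in MDPs. The most common form was a shared direction with a larger change in cMoPs, found in 824 genes (30.6%), and the next a change called in cMoPs alone, in 780 genes (29.0%). A change called in MDPs alone was behind 523 genes (19.4%), and a shared direction with a larger change in MDPs behind 245 (9.09%). In 296 genes the 2 stages changed in opposite directions, 121 of them up in Irf8KO cMoPs and down in Irf8KO MDPs, and 175 the other way. The remaining 26 were called at neither stage. Among the 233 genes that differed by at least 2-fold (1.01% positive and 1.27% negative), the larger change lay in cMoPs with a shared direction in 101 and in MDPs in 13, and 56 had opposite directions. Of the 4383 genes called at both stages, detected on all arrays or not, 92.8% changed in the same direction. The forms were counted under 1 processing. Over all genes tested, 6472 were called in cMoPs and 6155 in MDPs. These counts were 8136 and 5512 with arrays scaled to their medians, and 7508 and 5174 with arrays weighted by stage. They were 6334 and 6203 with quantile normalization within each slide. The part of the fainter signal and wider spread of the MDP arrays in the forms was not tested.

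**Figure D2:**
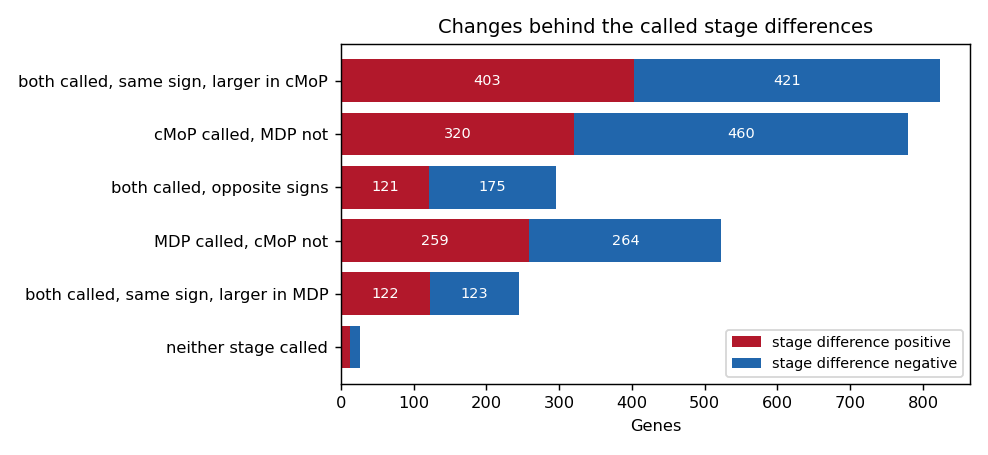
Number of genes, of 2694 called and well above background on all 8 arrays, by the form of their change at the 2 stages, with positive stage differences in red and negative ones in blue. A larger or sole change in cMoPs accounts for the 2 longest bars, 824 and 780 genes.

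Among the genes detected on every array, the most positive stage difference was that of S100a9, which with S100a8 forms calprotectin, an abundant calcium-binding protein pair of neutrophils and monocytes. The S100a9 signal was 7.45 and 7.57 in Irf8KO cMoPs, against 3.71 and 3.66 in WT cMoPs, and -0.46 and -0.26 in Irf8KO MDPs, against 1.13 and 0.90 in WT MDPs. The groups did not overlap at either stage, and the order was reversed: Irf8KO was higher than WT in cMoPs and lower in MDPs. The change was 3.82 in cMoPs and -1.38 in MDPs, a stage difference of 5.20 ± 0.12 (SE, 95% interval 4.94 to 5.46, adjusted p = 4.3e-09 by limma). Its partner behaved differently. The S100a8 signal was 8.43 and 8.46 in Irf8KO cMoPs, against 4.03 and 4.06 in WT cMoPs, and 5.13 and 5.16 in Irf8KO MDPs, against 1.47 and 1.26 in WT MDPs. S100a8 was higher without Irf8 at both stages, by 4.40 and 3.78, and its stage difference was 0.62 ± 0.080 (SE, adjusted p = 0.000316). The calprotectin genes thus rose together in cMoPs and moved apart in MDPs. Each was read by 1 probe.

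Because the neighbours S100a8 and S100a9 parted only at the MDP stage, their promoter windows are shown, from 250 bases before to 50 bases after the start of the gene (RefSeq, GRCm38.p6; S100a9 at chr3:90695672-90695971, minus strand; S100a8 at chr3:90668821-90669120, plus strand). Capitals mark a match to the C/EBP-type motif TTNNGCAA on either strand. S100a9 holds 1 match, on the opposite strand, from position -236 to -229 relative to the start, and the S100a8 window holds none of these letters.
S100a9: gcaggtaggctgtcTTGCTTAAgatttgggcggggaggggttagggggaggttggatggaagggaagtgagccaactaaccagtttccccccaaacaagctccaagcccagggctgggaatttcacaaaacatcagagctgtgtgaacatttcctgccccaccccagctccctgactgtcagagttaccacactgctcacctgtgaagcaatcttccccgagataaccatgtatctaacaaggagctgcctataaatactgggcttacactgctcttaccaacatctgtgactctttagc
S100a8: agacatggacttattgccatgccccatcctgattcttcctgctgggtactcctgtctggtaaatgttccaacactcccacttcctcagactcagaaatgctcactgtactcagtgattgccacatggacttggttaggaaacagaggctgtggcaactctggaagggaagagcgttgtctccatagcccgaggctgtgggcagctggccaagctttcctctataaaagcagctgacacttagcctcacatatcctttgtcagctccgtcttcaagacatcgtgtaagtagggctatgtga
This motif lay in 10.4% of the 9654 tested genes with a promoter window in the table and in 10.8% of all 32851 windows. Among genes with a positive stage difference of at least 2-fold it lay in 29 of 192 (15.1%), and among those with a negative one in 21 of 196. Among genes called and changed at least 2-fold in the same direction at both stages it lay in 30 of 196 that rose (15.3%) and in 17 of 163 that fell. A gene can belong both to the shared rises and to the positive stage differences, so similar shares in these sets are partly built in. These shares are a description, and a match is not a shown binding site.

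Late neutrophil and secondary granule genes mostly had positive stage differences. Of the 17 members detected on every array 13 were positive and 2 negative, with a median of 0.61. Of all 21 tested, 17 were positive and 2 negative, with a median of 0.96, beside a median of -0.0086 over all genes tested. A member could pass the filter on faint genes through Irf8KO cMoPs alone, where these genes were high. The count and the median of the 21 are therefore no further support. Over all genes tested 11.6% were positive and 13.3% negative, and the list counts below are to be read beside these shares. The median change of the list was 1.35 in cMoPs, where 20 of 21 rose, and 0.50 in MDPs, where 13 rose and 6 fell. The summed signal of the 21 genes, in multiples of the 75th percentile, was 1367 to 1417 in Irf8KO cMoPs, 364 to 367 in WT cMoPs, 669 to 671 in Irf8KO MDPs and 387 to 400.4 in WT MDPs. Of the 17 members detected on every array 13 were positive and 2 negative, with a median of 0.61. The Wfdc21 signal, from a whey acidic protein domain gene, was 5.46 and 5.52 in Irf8KO cMoPs, against -0.20 and -0.15 in WT cMoPs, and 1.32 and 1.28 in Irf8KO MDPs, against -1.23 and -1.43 in WT MDPs. Without Irf8 it was higher at both stages, and its rise of 5.66 in cMoPs exceeded that of 2.63 in MDPs by 3.04 ± 0.10 (SE). Lcn2, which encodes the iron-scavenging granule protein lipocalin 2, had signals of 5.36 and 5.35 in Irf8KO cMoPs against 1.97 and 2.05 in WT cMoPs, and 3.48 and 3.48 in Irf8KO MDPs against 2.17 and 1.86 in WT MDPs. Its stage difference was 1.88, and that of Chil3, a chitinase-like protein of myeloid cells, was 1.74. Pglyrp1, a peptidoglycan-binding granule protein, differed in direction, with a rise of 0.86 in cMoPs and a change of -0.49 in MDPs. Mmp8, the neutrophil collagenase, went against the list: it rose by 2.87 in cMoPs and by 5.15 in MDPs, a stage difference of -2.28 ± 0.17 (SE, adjusted p = 8.38e-06).

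**Figure D3:**
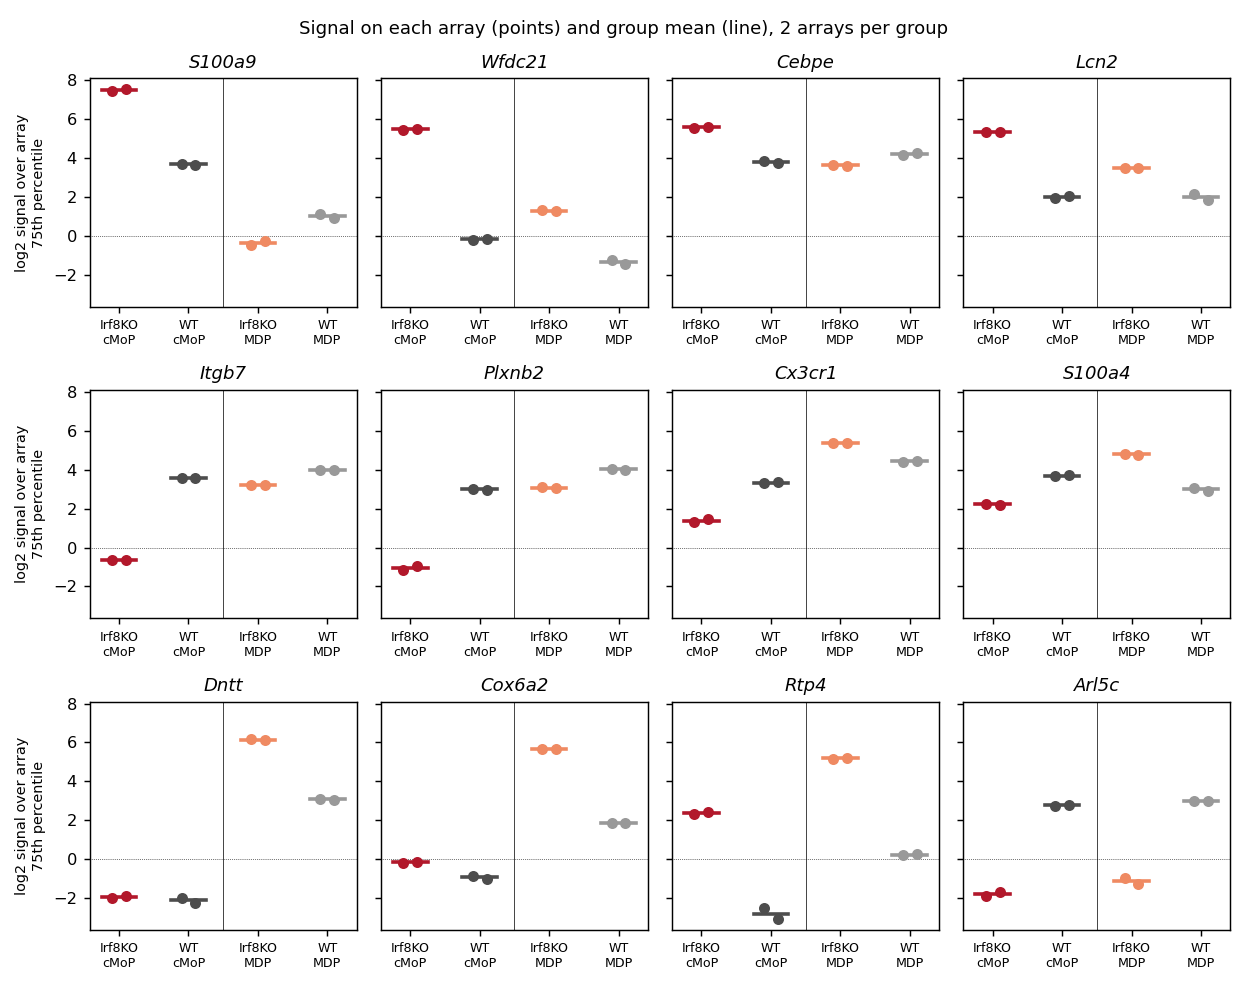
Log2 signal over the 75th percentile of the array for 12 genes in Irf8KO cMoPs, WT cMoPs, Irf8KO MDPs and WT MDPs; each point is 1 array and each line a group mean. The distance between Irf8KO and WT differs between the stages for the first 10 genes, and for Rtp4 and Arl5c no stage difference was called.

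Some granule genes were too faint at a stage for a measured fold. Camp, which encodes the antimicrobial cathelicidin, rose by 2.46 in cMoPs and was not well above background in Irf8KO MDPs, where its change was -0.73 or further below 0. Its stage difference was therefore at least 3.18 (adjusted p = 4.37e-08 as measured). Ltf, the lactoferrin gene, was not well above background in either MDP group and rose in cMoPs by 3.58 as measured, or 3.36 with faint signals raised to the faintest detected one. With signals raised in the same way its stage difference was 3.23, which is not a bound because both MDP groups were faint. Camp, Ltf and S100a9 have in common a rise in cMoPs with no called rise in MDPs.

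Transcription factors and receptors of the granulocyte lineage were positive in 9 of 14, with 2 negative and a median of 0.35. With arrays scaled to their medians 4 of the 14 were positive, and the median was 0.13. Cebpe, the C/EBP family member that late granulocyte maturation needs, had signals of 5.57 and 5.60 in Irf8KO cMoPs, against 3.83 and 3.76 in WT cMoPs, and 3.66 and 3.60 in Irf8KO MDPs, against 4.18 and 4.28 in WT MDPs. Like S100a9 it was higher without Irf8 in cMoPs (1.79) and lower in MDPs (-0.60), a stage difference of 2.39 ± 0.063 (SE, adjusted p = 6.13e-09). Gfi1, a repressor that favours the neutrophil over the monocyte fate, rose at both stages, by 2.18 in cMoPs and by 0.97 in MDPs. The receptor for G-CSF, Csf3r, did not pass the test, with a stage difference of 0.07 and a 95% interval of -0.07 to 0.21. Primary granule genes, which are switched on earlier, had 7 positive and 1 negative of 12 and a median of 0.36, or 5 positive and a median of 0.14 with arrays scaled to their medians. Elastase (Elane) and myeloperoxidase (Mpo) rose by similar amounts at both stages, Elane by 0.68 in cMoPs and 0.75 in MDPs and Mpo by 0.25 and 0.17, and neither stage difference was called (-0.07 and 0.08). Serpinb1a, an inhibitor of proteases such as elastase, rose more in cMoPs (1.21) than in MDPs (0.26), and so did the serine protease gene Prss57 (1.98 and 1.24). The chemokine receptor gene Cxcr2, which guides neutrophils, rose by 1.19 in cMoPs, and its change of 0.15 in MDPs was not called.

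**Figure D4:**
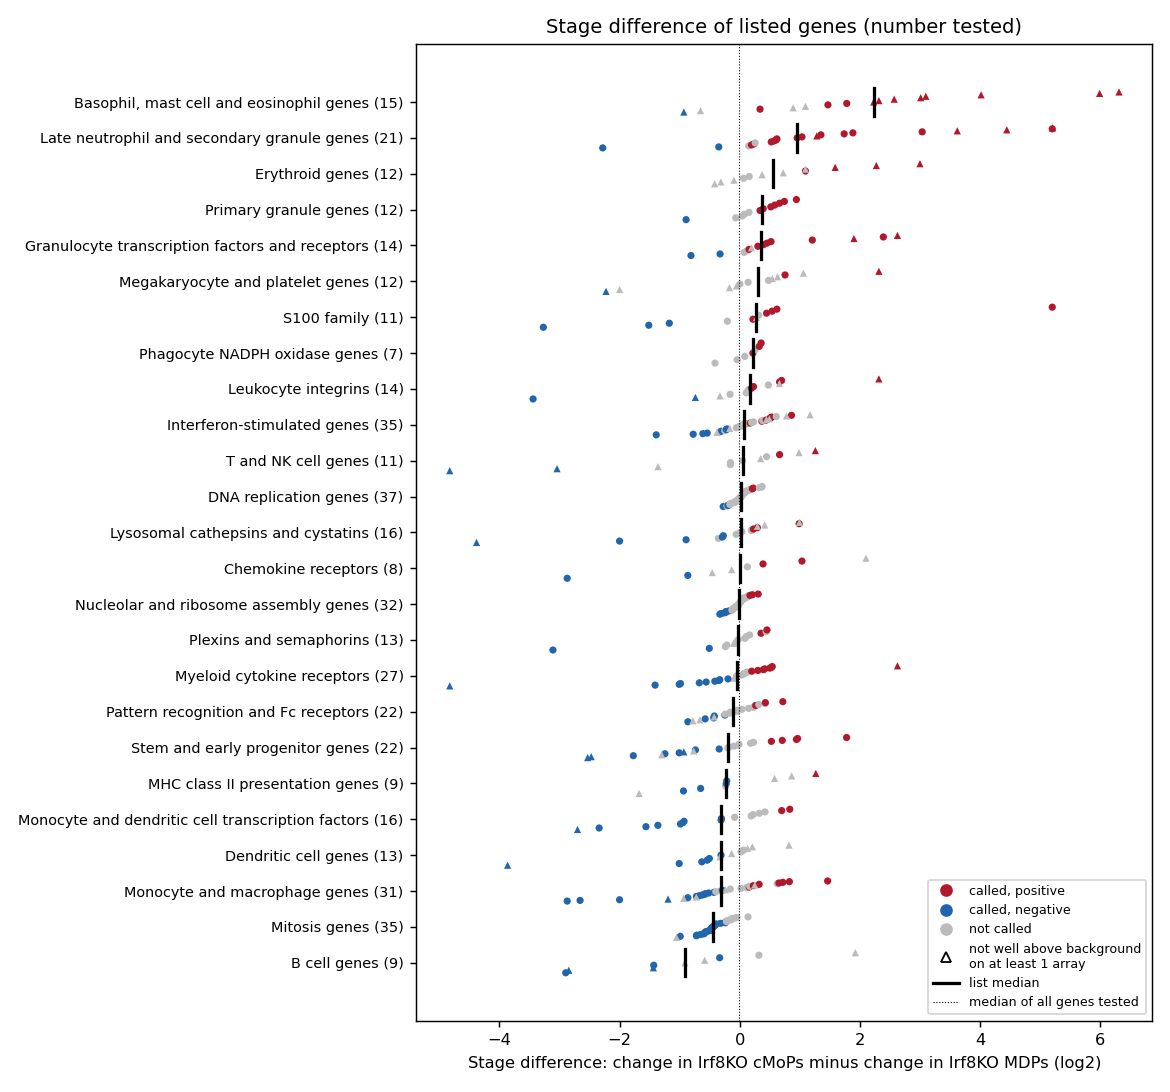
Stage difference (log2) of each tested gene of the gene lists, 1 row per list, sorted by the list median (black bar); triangles mark genes not well above background on at least 1 array. Late neutrophil genes lie mostly right of 0, with Mmp8 at -2.28, and mitosis genes lie left of it with a median of -0.45.

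Genes outside the neutrophil lists were also among the most positive. Mogat2, an acyltransferase of triglyceride synthesis, rose by 3.56 in cMoPs and 1.09 in MDPs, a stage difference of 2.48 ± 0.11 (SE). Gpr84, a receptor for medium-chain fatty acids, rose by 2.27 in cMoPs and changed by 0.21 in MDPs, where it did not pass the test. Gsn, the actin-severing protein gelsolin, rose by 2.26 in cMoPs and by 0.26 in MDPs. Vat1, a vesicle amine transport protein, rose by 0.88 in cMoPs and fell by 0.94 in MDPs. For each of these 4 genes the 2 Irf8KO cMoP arrays lay above the 2 WT cMoP arrays. Their choice among the largest called differences made this all but certain, so it is no further support. Apoe, the apolipoprotein of macrophages and other cells, rose at both stages, by 4.03 in cMoPs and 2.57 in MDPs.

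Among the genes detected on every array, the most negative stage difference was that of Itgb7, an integrin chain that pairs with alpha 4 for homing to the gut. It had signals of -0.64 and -0.65 in Irf8KO cMoPs, against 3.55 and 3.57 in WT cMoPs, and 3.24 and 3.20 in Irf8KO MDPs, against 3.98 and 3.99 in WT MDPs. It was lower without Irf8 at both stages, with no overlap, and the change was -4.20 in cMoPs and -0.76 in MDPs, a stage difference of -3.44 ± 0.058 (SE, adjusted p = 4.7e-10 by limma). Plxnb2, a receptor for semaphorins, showed the same form with signals of -1.18 and -0.93 in Irf8KO cMoPs, against 2.99 and 2.98 in WT cMoPs, and 3.12 and 3.05 in Irf8KO MDPs, against 4.03 and 4.01 in WT MDPs. Its stage difference was -3.11 ± 0.10 (SE). The other members of these families went both ways. Of 14 leukocyte integrins 5 were positive and 2 negative, with a median of 0.17 that turned to -0.05 with arrays scaled to their medians. Among the positive ones was Itgb2, the common chain of the leukocyte beta 2 integrins, which rose by 0.76 in cMoPs with a change of 0.06 in MDPs that was not called. Of 13 plexins and semaphorins 2 were positive and 2 negative. Ccnd1, the cyclin that takes cells into the division cycle, changed by -2.96 in cMoPs and by -0.44 in MDPs.

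Several genes fell in Irf8KO cMoPs and rose in Irf8KO MDPs. S100a4, a calcium-binding protein linked to cell motility, had signals of 2.23 and 2.21 in Irf8KO cMoPs, against 3.67 and 3.72 in WT cMoPs, and 4.82 and 4.76 in Irf8KO MDPs, against 3.09 and 2.90 in WT MDPs. The changes of -1.47 in cMoPs and 1.79 in MDPs gave a stage difference of -3.27 ± 0.080 (SE, adjusted p = 5.95e-09), opposite in sign to that of S100a9 in the same family. Of 11 S100 genes 5 were positive and 3 negative, the other two negative ones being S100a6 (-2.45 in cMoPs and -0.94 in MDPs) and S100a10 (-1.06 in cMoPs, with 0.11 in MDPs that was not called). Cx3cr1, the fractalkine receptor, had signals of 1.31 and 1.46 in Irf8KO cMoPs, against 3.30 and 3.38 in WT cMoPs, and 5.35 and 5.35 in Irf8KO MDPs, against 4.41 and 4.46 in WT MDPs. It fell by 1.95 in cMoPs and rose by 0.92 in MDPs (stage difference -2.87 ± 0.073, SE). It is among the markers by which MDPs are commonly identified, and the sort gates are not given in the sources used here, so the part of the gate in this value was not tested. Phlda3, an inhibitor of AKT signalling, fell by 1.41 in cMoPs and rose by 1.23 in MDPs, and Cd28, the T cell costimulatory receptor, fell by 1.08 and rose by 1.21. P2rx7, an ATP-gated channel, fell by 2.17 and rose by 0.50, and Pdzd4 fell by 2.48 and rose by 0.39. Il6st, the shared signalling chain gp130 of the interleukin 6 receptor family, fell by 0.88 and rose by 0.53.

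The remaining strongly negative genes rose mainly in Irf8KO MDPs. Cox6a2, a subunit of cytochrome oxidase, had signals of -0.19 and -0.14 in Irf8KO cMoPs, against -0.89 and -1.0 in WT cMoPs, and 5.64 and 5.69 in Irf8KO MDPs, against 1.86 and 1.88 in WT MDPs. It rose by 0.78 in cMoPs and by 3.80 in MDPs (stage difference -3.02 ± 0.082, SE). Dntt, the terminal transferase of lymphoid progenitors, had signals of -2.02 and -1.88 in Irf8KO cMoPs, against -1.98 and -2.27 in WT cMoPs, and 6.16 and 6.12 in Irf8KO MDPs, against 3.11 and 3.04 in WT MDPs. The cMoP groups overlapped and the MDP groups did not: Dntt rose by 3.07 in MDPs, while its change of 0.17 in cMoPs was not called. Gpr25 was not well above background in WT MDPs, so its change in MDPs was 4.07 or more. In each cMoP group it was well above background on only 1 array. Its stage difference of -4.08 with faint signals raised is therefore not a bound.

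Dntt was not alone among B cell genes. Of 9 tested, 5 had negative stage differences and none a positive one, with a median of -0.91, and the median change was 0.51 in cMoPs and 2.27 in MDPs. A member could pass the filter on faint genes through Irf8KO MDPs alone, where these genes were high, so the count and the median support nothing. Of the 4 members detected on every array 3 were negative, with a median of -0.88. Vpreb1, a surrogate light chain gene, rose by 1.71 in cMoPs and by 3.14 in MDPs. Il7r, the receptor of a lymphoid growth factor, was well above background only in Irf8KO MDPs, where its change was 3.26 or more. The summed signal of the 9 B cell genes, in multiples of the 75th percentile, was 18.3 to 18.7 in Irf8KO cMoPs, 17.3 to 17.5 in WT cMoPs, 126 to 129 in Irf8KO MDPs and 46.9 to 47.6 in WT MDPs. On both arrays of a group 6, 5, 8 and 7 of the 9 were detected, in the same order of groups. The remaining 8 of the 17 listed genes, among them Cd79a and Pax5, were not tested, being unnamed or not above background. The part of B lineage cells in these values was not tested.

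Of 15 basophil, mast cell and eosinophil genes tested, 11 had a positive stage difference and 1 a negative one, with a median of 2.23 (1.47 with faint signals raised). A member could pass the filter on faint genes through WT MDPs alone, where these genes were high, so the count and the median support nothing. Only Hdc, Epx and Mcpt8 were detected on every array, and all 3 were positive, with a median of 1.47. Of the 15, 14 fell without Irf8 in MDPs (median -2.66), while in cMoPs 3 rose and 5 fell (median -0.10). Prg2, the eosinophil major basic protein, was well above background only in WT MDPs, and its change in MDPs was -5.03 or further below 0. Ear2, an eosinophil-associated ribonuclease, was not well above background in Irf8KO MDPs, so its stage difference was at least 4.19, and that of the related Ear10 at least 2.77. Mcpt8, a protease gene and marker of basophils, rose by 0.34 in cMoPs and fell by 1.44 in MDPs, and Epx, a peroxidase gene of eosinophils, rose by 0.71 and fell by 0.76. The summed signal of the 15 genes was 31.2 to 32.3 in Irf8KO cMoPs, 28.1 to 28.9 in WT cMoPs, 40.4 in both Irf8KO MDP arrays and 65.9 to 67.9 in WT MDPs, and 14 of the 15 genes were detected on both WT MDP arrays, against 4 on both Irf8KO MDP arrays. The other 12 listed genes, among them Ms4a2, Cma1 and Tpsab1, were not tested. The part of such cells in the stage differences of other genes was not tested.

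Transcription factors of the monocyte and dendritic cell lineages were negative in 9 of 16, Irf8 itself included, with 2 positive and a median of -0.31. Irf5, an IRF family member of macrophages, had signals of -1.61 and -1.79 in Irf8KO cMoPs, against 2.36 and 2.37 in WT cMoPs, and 0.66 and 0.50 in Irf8KO MDPs, against 2.27 and 2.35 in WT MDPs. It fell at both stages and more in cMoPs (-4.07) than in MDPs (-1.73). Klf4, a zinc finger factor that promotes monocyte differentiation, changed by -5.27 in cMoPs and by -3.91 in MDPs, the stage difference being -1.36 ± 0.14 (SE). Pou2f2, an octamer-binding factor, changed by -2.29 and by -1.31. Klf2 rose by 1.25 in MDPs, and its change of -0.31 in cMoPs was not called. The 2 positive members, Id2 and Bcl11a, rose at both stages, Id2 by 2.00 in cMoPs and 1.30 in MDPs and Bcl11a by 1.16 and 0.33.

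Effector genes of monocytes and macrophages were also more often negative, 13 of 31 against 7 positive, with a median of -0.32. The highest stage difference of the list was 1.46, that of Apoe, which rose at both stages. Ahnak, a large scaffold protein, fell by 2.26 in cMoPs and rose by 0.40 in MDPs, a stage difference of -2.66 that was -1.68 as the mean of its probes. Csf1r, the receptor for the macrophage growth factor, changed by -0.79 in cMoPs and by -0.12 in MDPs, a stage difference of -0.67 that was -0.34 (adjusted p = 0.0471 by limma) as the mean of its probes. The chemokine receptor gene Ccr2, which lets monocytes leave the marrow, rose less in cMoPs (0.53) than in MDPs (1.39). Il10ra, a chain of the interleukin 10 receptor, changed by -1.63 in cMoPs and by -0.65 in MDPs. Flt3, a growth factor receptor that MDPs carry, had a change of -0.21 in cMoPs and 0.80 in MDPs, and Kit, the stem cell factor receptor, rose by 1.07 and 0.54. Ly6c1 did not pass the test in cMoPs (0.02) and fell by 0.63 in MDPs. Of the 13 dendritic cell genes tested, 6 were negative and none positive, with a median of -0.31. Only 7 were detected on every array, of which 5 were negative. Of 9 MHC class II presentation genes 4 were negative and 1 positive. Only 5 of these were detected on every array, of which 4 were negative and none positive. In both lists a member could pass the filter on faint genes through 1 bright group. H2-DMa, which helps load peptides, was negative and changed by -1.97 in cMoPs and by -1.03 in MDPs.

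Cathepsins, the lysosomal proteases, did not move as a group: of 16 cathepsin and cystatin genes 5 were negative and 3 positive, with a median of 0.02 that turned to -0.20 with arrays scaled to their medians and to -0.03 over the 12 members detected on every array. Ctss, which cleaves the invariant chain of MHC class II, had signals of 1.09 and 1.12 in Irf8KO cMoPs, against 4.53 and 4.51 in WT cMoPs, and 3.18 and 3.19 in Irf8KO MDPs, against 4.63 and 4.57 in WT MDPs. It was lower without Irf8 at both stages and more so in cMoPs (-3.42) than in MDPs (-1.42), with a stage difference of -2.00 ± 0.054 (SE). Ctsh went the other way. Its signals were 2.55 and 2.64 in Irf8KO cMoPs, against 6.19 and 6.20 in WT cMoPs, and 1.60 and 1.63 in Irf8KO MDPs, against 6.22 and 6.20 in WT MDPs, so that the larger fall lay in MDPs (-4.59, against -3.60 in cMoPs). Ctsc, which activates granule proteases, changed by -1.63 in cMoPs and by -0.74 in MDPs. Lgmn, the asparagine endopeptidase, was not well above background in Irf8KO cMoPs, where its change was -2.43 or further below 0, and rose by 0.78 in MDPs, so its stage difference was -3.21 or further below 0. Ppfia4, a liprin, fell at both stages and was not well above background in Irf8KO cMoPs, with a stage difference of -2.67 or further below 0 for its brightest probe and of -1.04 as the mean of its probes. Cp, the copper protein ceruloplasmin, was not well above background in WT cMoPs. Its stage difference of -2.85 with faint signals raised is therefore a lower bound, and the difference may lie nearer 0.

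Genes of stem and early progenitor cells went both ways, 5 positive and 8 negative of 22. Cd34, a surface glycoprotein of early progenitors, changed by -2.70 in cMoPs and by -0.93 in MDPs. Prom1, a membrane glycoprotein of the same cells, rose by 3.82 in cMoPs and by 2.04 in MDPs.

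Within the cell cycle, mitosis and DNA replication genes took different courses. Of 35 mitosis genes 25 had a negative stage difference and none a positive one, with a median of -0.45. All but 1 of them fell in Irf8KO cMoPs (34 of 35, median -0.44), whereas in MDPs 8 rose and 9 fell (median 0.01). Of 37 DNA replication genes only 2 were positive and 3 negative, with a median of 0.03, and here most members fell at both stages, 29 in cMoPs (median -0.25) and 28 in MDPs (median -0.29). Plk1, a kinase that drives entry into mitosis, had signals of 4.77 and 4.74 in Irf8KO cMoPs, against 5.46 and 5.42 in WT cMoPs, and 5.79 and 5.78 in Irf8KO MDPs, against 5.73 and 5.78 in WT MDPs. The cMoP groups lay apart and the MDP groups lay close together. Plk1 fell by 0.69 in cMoPs, and its change of 0.03 in MDPs was not called. Kif23, a motor protein of the dividing cell's midbody, fell by 0.80 and rose by 0.19, Ccnb1, the mitotic cyclin B1, fell by 0.44 and rose by 0.27, and Mki67, the proliferation antigen, fell by 0.43 with a change of 0.03 in MDPs that was not called. Pcna, the replication clamp, was lower at both stages, by -0.20 in cMoPs and -0.15 in MDPs, with an interval of the stage difference from -0.22 to 0.11. Of 32 nucleolar and ribosome assembly genes 29 fell in cMoPs and 28 in MDPs, and the stage difference was positive in 3 and negative in 6, with a median of -0.02. Npm1, a nucleolar chaperone, fell by 0.35 in cMoPs, with a change of -0.04 in MDPs that was not called. When arrays were scaled to their medians the median stage difference was -0.23 over all genes, -0.67 over the mitosis list and -0.19 over the replication list. This scaling shifts every gene by the same amount. It cannot change the place of a list relative to all genes, so it is no check of that place.

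**Figure D5:**
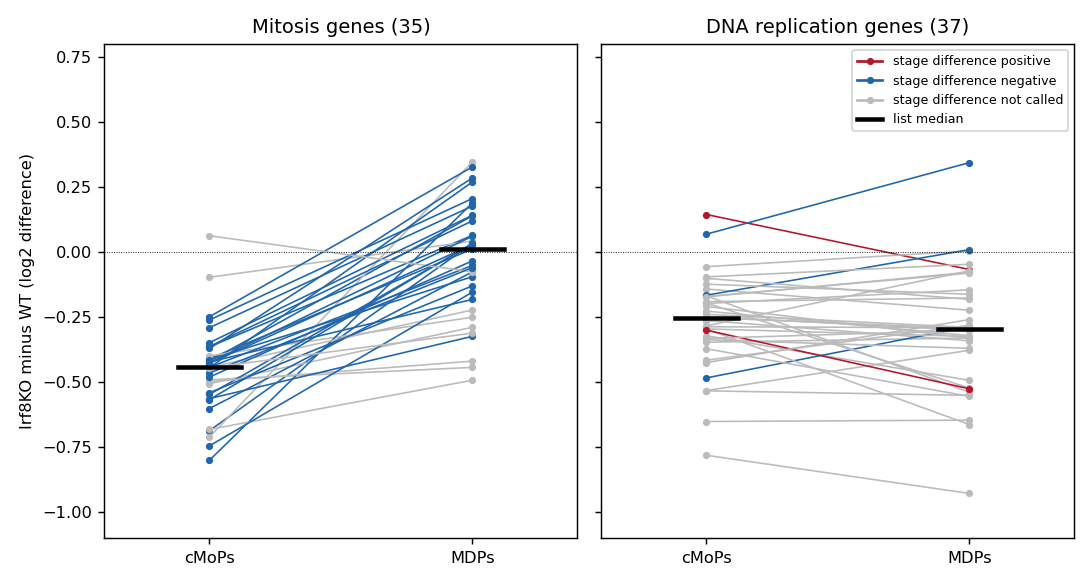
Change without Irf8 (Irf8KO minus WT, log2) of each mitosis gene (left) and each DNA replication gene (right) in cMoPs and in MDPs, with lines joining the 2 values of a gene, coloured by the call of its stage difference, and black bars at the list medians. The mitosis median is -0.44 in cMoPs and 0.01 in MDPs, and the replication median is -0.25 and -0.29.

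For many large changes no stage difference was called. Of 258 genes, well above background on all arrays, that changed at least 2-fold in the same direction at both stages (163 up and 95 down), 142 still had a called stage difference, and for 83 the 95% interval of the stage difference lay within 0.5 of 0 on the log2 scale. Among those without a called stage difference, the largest shared rise was that of Rtp4, an interferon-induced chaperone of receptors, with signals of 2.34 and 2.40 in Irf8KO cMoPs, against -2.50 and -3.10 in WT cMoPs, and 5.17 and 5.21 in Irf8KO MDPs, against 0.20 and 0.24 in WT MDPs. The level was higher in MDPs of either genotype, while the rise was 5.17 in cMoPs and 4.97 in MDPs, with a 95% interval of the stage difference from -0.26 to 0.66. Ddx58, the RNA sensor RIG-I, rose by 4.43 and 4.05, Samd9l, an antiviral factor, by 3.91 and 4.25, and the amino acid transporter gene Slc36a2 by 3.23 and 3.05. The largest shared fall without a called stage difference was that of Arl5c, an ARF-like GTPase, with signals of -1.92 and -1.69 in Irf8KO cMoPs, against 2.74 and 2.79 in WT cMoPs, and -0.97 and -1.28 in Irf8KO MDPs, against 3.00 and 3.00 in WT MDPs. It changed by -4.57 in cMoPs and -4.13 in MDPs (interval -0.79 to -0.10, adjusted p = 0.0593). Cyp4f18, a fatty acid hydroxylase, changed by -2.91 and -2.66, the fatty acid elongase gene Elovl7 by -2.87 and -2.63, and the interferon-inducible Ifi211 by -2.81 and -2.63. That a stage difference was not called does not show that these changes were equal. Under another background correction (normexp) 7 of these 8 genes did have a called stage difference, Ddx58 (0.44), Samd9l (0.63), Slc36a2 (0.89), Arl5c (-1.05), Cyp4f18 (-0.53), Elovl7 (-0.78) and Ifi211 (-0.72). With quantile normalization over the 8 arrays it was called for all but Samd9l, with values of 0.71 for Rtp4, 0.94 for Ddx58, 0.67 for Slc36a2, -1.05 for Arl5c, -0.56 for Cyp4f18, -0.64 for Elovl7 and -0.59 for Ifi211. Leaving out 1 array gave a call for Rtp4 (0.50 without WT cMoP experiment 1), Samd9l (-0.74 without WT MDP experiment 2), Slc36a2 (0.36 without WT MDP experiment 1), Ddx58 (0.50 without WT cMoP experiment 2 and 0.42 without WT MDP experiment 1), Arl5c (-0.56 without Irf8KO cMoP experiment 2 and -0.60 without Irf8KO MDP experiment 2) and Cyp4f18 (-0.32 without Irf8KO MDP experiment 1 and -0.32 without WT MDP experiment 2).

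Interferon-stimulated genes as a list followed no common course. Of 35 tested 7 were positive and 7 negative, with a median of 0.07 that turned to -0.15 with arrays scaled to their medians. Isg15, a ubiquitin-like protein, rose by 1.21 in cMoPs and 1.17 in MDPs, and the interval of its stage difference was -0.15 to 0.22. Ifit2 rose by 0.93 in cMoPs with a change of 0.07 in MDPs that was not called, and Ifi27l2a and Ifi204 changed more in cMoPs (-1.73 and -1.42) than in MDPs (-0.34 and -0.65). To show the letters that IRF proteins are known to recognise, the promoter windows of Ctss, lower without Irf8 with a larger fall in cMoPs, and of Ddx58, higher without Irf8 at both stages, are given with matches to the interferon response motif (GAAA, any 2 bases, GAAA) on either strand in capitals (RefSeq, GRCm38.p6; Ctss at chr3:95526536-95526835, plus strand; Ddx58 at chr4:40239776-40240075, minus strand). The match lies at positions -21 to -12 relative to the start of Ctss. On the opposite strand it lies at positions 2 to 11 relative to the start of Ddx58, the first transcribed base being position 0.
Ctss: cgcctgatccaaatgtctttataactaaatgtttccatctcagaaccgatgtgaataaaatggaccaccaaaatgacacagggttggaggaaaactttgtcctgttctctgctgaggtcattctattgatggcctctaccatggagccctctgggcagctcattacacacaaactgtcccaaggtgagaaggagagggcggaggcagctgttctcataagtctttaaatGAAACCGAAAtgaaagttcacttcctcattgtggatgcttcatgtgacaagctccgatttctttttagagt
Ddx58: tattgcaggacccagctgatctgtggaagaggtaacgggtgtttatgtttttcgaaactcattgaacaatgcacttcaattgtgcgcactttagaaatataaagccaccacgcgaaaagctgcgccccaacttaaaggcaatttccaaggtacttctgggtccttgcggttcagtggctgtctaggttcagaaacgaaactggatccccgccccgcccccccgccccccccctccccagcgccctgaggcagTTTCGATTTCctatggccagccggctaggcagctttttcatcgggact
The motif lay in 3.78% of the tested genes with a window and in 3.44% of all windows. Among genes called and changed at least 2-fold in the same direction at both stages it lay in 19 of 196 that rose (9.69%) and in 16 of 163 that fell (9.82%). Among genes with a stage difference of at least 2-fold it lay in 5 of 192 positive ones (2.60%) and in 6 of 196 negative ones (3.06%). The composite motif (GGAA, any 2 bases, GAAA) that ETS and IRF proteins can bind together, searched separately, lay in 2.86% of the tested genes with a window, in 3.13% of the positive and 2.55% of the negative genes. These shares were not tested.

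The arrays of 32Dcl.3 cells give a readout of the same genes that the stage difference did not use. Of the 11174 tested genes detected there, 9.15% rose at least 2-fold with C/EBPalpha over empty vectors and 12.6% fell, and 2.83% rose and 0.993% fell with IRF8 (differences between means of 2 arrays a group). Of 182 genes with a positive stage difference of at least 2-fold, 42.3% rose and 9.34% fell with C/EBPalpha, and 6.04% rose and 13.7% fell with IRF8. Of 164 with a negative one, 36 rose and 8 fell with IRF8, and 21.3% rose and 20.1% fell with C/EBPalpha. With both factors 14.1% of all genes detected there rose and 22.5% fell. The shares with both factors were 31.9% and 17.6% of the 182 positive genes, and 37.2% and 21.3% of the 164 negative ones. With both factors the negative genes thus rose at least as often as the positive ones. Over all called genes, 24.3% of 1280 positive ones rose with C/EBPalpha, against 7.29% of 1412 negative ones, of which 282 fell. The 8 genes with the most positive stage differences among those detected on every progenitor array were all higher with C/EBPalpha, Mogat2 by 8.17 on the log2 scale, Wfdc21 by 6.32, Lcn2 by 5.74, S100a9 by 4.77, Gpr84 by 3.19, Cebpe by 2.61, Gsn by 1.35 and Vat1 by 0.79. Mmp8, whose stage difference was negative, was 10.05 higher. Of the 8 most negative ones, Cx3cr1 and Pdzd4 were not detected in 32Dcl.3 cells. The difference with IRF8 was 3.57 for P2rx7 (and 2.20 with C/EBPalpha), 1.36 for Itgb7, 1.27 for Plxnb2, 0.09 for S100a4, -0.26 for Dntt and -1.71 for Cox6a2, so that these genes went both ways. Of other negative genes named above, Ctss was 5.74 higher with IRF8 and Irf5 1.12 higher, and Ccnd1 was -1.37. Arl5c, without a called stage difference, was 3.21 higher with IRF8. None of these differences was tested.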

How the data were processed

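Total RNA of sorted mouse progenitors and of 32Dcl.3 cells was labelled with Cy3 and hybridised to 16 single-colour Agilent arrays, of which the 8 progenitor arrays, 2 per group, carry the stage difference. Per the file headers, the deposited intensity values were extracted with Agilent Feature Extraction 10.7.3.1 (protocol GE1_107_Sep09, mm9), which subtracts background and detrends within each array. The authors' deposited series intensities served as an alternative. On cMoP arrays they differ from these by nearly a constant factor per array, with an SD of the log2 ratio over probes of 0.014 to 0.018. That SD was 0.122 to 0.126 on MDP arrays and 0.290 to 0.545 on 32Dcl.3 arrays, so a factor alone does not describe those.

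From the processed signal, log2 values relative to the 75th percentile of each array were computed, leaving out control spots and outlier spots and averaging the spots of a probe. Probes well above background on both arrays of at least 1 of the 4 groups were kept, and the brightest probe stood for each gene (11963 genes). Of 55681 probes, 26762 have a gene symbol in the annotation table and 28919 have none. Stage differences were tested with limma 3.58.1 (lmFit, eBayes with an intensity trend) in R 4.3.3, with all 4 groups in 1 fit, 4 residual degrees of freedom and Benjamini-Hochberg adjustment over all genes at 0.05. Signals below background were raised to the faintest signal well above background to give bounds. The number of arrays limits the precision.

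The genes named are all members of a described list, the 8 most positive and 8 most negative called genes detected on all 8 arrays, the 6 with opposite signs and the largest smaller change, the largest shared changes without a call (4 up and 4 down), the 4 and 4 largest involving a faint group, the 3 and 3 largest gains in cMoPs, Irf8 and Cebpa. The members and lists were chosen with earlier results of these data known. Same-numbered arrays did not deviate together within a stage (correlation -0.025 in cMoPs and 0.071 in MDPs), so they were not paired. The files used here hold no mean spot signal, so the normexp alternative used median spot and local background signals. Promoter windows are from RefSeq (GRCm38.p6), with 9654 tested genes matched by symbol.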

Additional observations from a re-analysis of the deposited data

Results flagged for a closer look

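These results stand here because the change without Irf8 differed between cMoPs and MDPs by the test of the difference itself. They comprise the total of 2980 genes and the called genes named above, and no cause was tested for any of them. Positive stage differences, on the log2 scale, were S100a9 5.20, Wfdc21 3.04, Mogat2 2.48, Cebpe 2.39, Gpr84 2.06, Gsn 1.99, Lcn2 1.88, Vat1 1.81, Mcpt8 1.78, Prom1 1.78, Chil3 1.74, Epx 1.47, Apoe 1.46, Pglyrp1 1.35, Gfi1 1.21, Cxcr2 1.04, Ctsh 0.99, Serpinb1a 0.94, Ifit2 0.86, Bcl11a 0.83, Prss57 0.74, Id2 0.70, Itgb2 0.70, Ly6c1 0.65, S100a8 0.62, Kit 0.53 and Cebpa 0.45. Negative ones were Itgb7 -3.44, S100a4 -3.27, Plxnb2 -3.11, Cox6a2 -3.02, Dntt -2.89, Cx3cr1 -2.87, Pdzd4 -2.86, P2rx7 -2.66, Ahnak -2.66, Phlda3 -2.63, Ccnd1 -2.52, Irf5 -2.34, Cd28 -2.28, Mmp8 -2.28, Ctss -2.00, Cd34 -1.77, Klf2 -1.56, S100a6 -1.51, Vpreb1 -1.43, Il6st -1.41, Ifi27l2a -1.39, Klf4 -1.36, S100a10 -1.17, Flt3 -1.01, Pou2f2 -0.99, Il10ra -0.99, Kif23 -0.99, H2-DMa -0.94, Irf8 -0.93, Ctsc -0.89, Ccr2 -0.86, Ifi204 -0.77, Plk1 -0.72, Ccnb1 -0.71, Csf1r -0.67, Mki67 -0.46 and Npm1 -0.31. For genes with at least 1 group below background the values after raising faint signals were Ear2 4.19, Ltf 3.23, Camp 3.18, Ear10 2.77, Gpr25 -4.08, Lgmn -3.21, Cp -2.85, Ppfia4 -2.67, Il7r -3.19 and Prg2 5.10.

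Probes without a gene symbol were used in no comparison above. Of 9352 such probes tested with the same limma fit, 466 had a called stage difference (4.98%), 262 positive and 204 negative, and 173 differed by at least 2-fold.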

How the results depend on the processing

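Of 1817 values of 87 named genes under 21 other settings, 1782 kept their direction and their side of the threshold. Several settings leave the estimate itself unchanged, and many genes were named for large differences, so a high share was to be foreseen. Samd9l turned to 0.63 with the normexp background (adjusted p = 0.00034 by limma), and Cebpa lost its call with arrays scaled to their medians (0.23). In 33 others a stage difference that was not called became called, among them those of Rtp4, Ddx58, Arl5c and Pcna. The causes were not tested. Of the 2980 genes called above, 2061 were also called with arrays scaled to their medians and 2365 with the normexp background. The number of genes called, 2980 above, was 2997 from the authors' series values, 3302 with the normexp background, 4209 with arrays scaled to their medians, 2325 with no filter on faint probes, 2269 without the intensity trend and 2047 to 3217 when 1 array was left out, the lone array of a group being assumed to vary like the other groups. The replicate block (experiment within stage) gave 3205 calls, and it added calls for Arl5c, Cyp4f18 and Ddx58. With arrays scaled to their medians the median of all genes was -0.23 in the stage difference, -0.34 in cMoPs and -0.12 in MDPs, and the share of rising genes among those called was 13.4% in cMoPs, against 42.4% above, and 28.6% in MDPs, against 44.4% above (33.5% with the normexp background). The share of positive stage differences was 46.6% above, 11.8% with arrays scaled to their medians and 59.4% with the normexp background. Among called genes that stayed called, the normexp background moved the stage difference by over 1.5 times for 16 named genes, among them Klf2 (-0.58), Ctsh (0.64), S100a8 (1.13) and Klf4 (-2.08). For faint genes it gave values nearer 0 than the bounds and raised values above, such as 2.57 for Camp, 2.43 for Ear2, -1.62 for Gpr25 and -2.24 for Lgmn. Those bounds and raised values hold for the processed signal only. The list medians ranged from 0.61 to 1.00 for late neutrophil genes, from -0.67 to -0.38 for mitosis genes, from 0.97 to 2.28 for basophil genes and from -1.27 to -0.30 for B cell genes. The lower signal of the MDP arrays limits what can be measured there.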
